A study of Rattus norvegicus with 12 samples.

Results

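The genes described here are the receptors Notch1, Notch2 and Notch3, the ligand gene Jag1, the receptor modifier Lfng, the nuclear factor Rbpj and the target genes Hes1, Hey1, Hey2 and Nrarp. They were chosen by name and not by a cutoff, but with earlier results of these data known. Comparisons of them with all genes are therefore descriptive. Each is the row whose Entrez identifier carries that rat symbol, giving 10 genes of the 16924 in each count file. The cells were rat cardiac progenitor cells derived from 1 clone, so every group shares that origin and a growth medium with 10% fetal bovine serum, leukemia inhibitory factor, basic fibroblast growth factor, erythropoietin and glutathione. Of the 4 groups, cells were held in suspension in the first. In the others they were plated on fibronectin, on laminin or on dishes with no coating, at a low density meant to keep cells apart, and cultured for 2 h in 0.1% fetal bovine serum. The labels attach that plating text to the suspension libraries as well and do not describe how those cells were kept, so plating and any other difference in handling cannot be told apart. Each group held 3 libraries, numbered by the batch that the labels give.

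Notch receptors are cut after they bind a ligand of the Delta or Jagged family on a neighbouring cell, and the freed intracellular domain enters the nucleus. There it joins the DNA-binding protein RBPJ and turns on genes of the Hes and Hey families, which encode transcriptional repressors, and Nrarp, whose product limits the signal. In the heart the pathway is known for its part in valve formation, in the growth of the ventricular wall and in the fate of progenitor cells.

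The data are read counts from total RNA, with 15875160 to 20852160 counts per library and 0.448% to 4.24% of them from ribosomal RNA genes. Levels are given as CPM, the counts scaled to a library total of 1e6, in the order of replicates 1, 2 and 3. Differences are log2 fold changes ± SE from edgeR's quasi-likelihood test over all 12 libraries and 10020 genes, and a change was called at a Benjamini-Hochberg adjusted p under 0.05. Plated libraries of a batch deviated together from their group means (correlation across genes 0.514 to 0.853 over 9 pairs), and the biological coefficient of variation of the fit was 0.152, against 0.0911 without batch 3. The libraries come from batches of 1 line, so the p-values measure the spread between those batches and not between animals. Because whole cultures were sequenced, fewer cells of a type and less RNA per cell cannot be told apart.

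Promoters are shown for Hes1, Hey2 and Nrarp, the target genes with the clearest differences described next for which RefSeq gave one, and for Lfng, a modifier that moved the other way. Each is the 300 bases from 250 before to 50 after the annotated start in the RefSeq assembly GRCr8, written 5′ to 3′ on the gene's strand. Capitals mark TGGGAA on either strand, the core that RBPJ binds, and CACGTG, an E-box. The Hes1 window is chr11:84212996-84213295 on the minus strand, Hey2 is chr1:28640850-28641149 on the plus strand, Nrarp is chr3:28390495-28390794 on the plus strand and Lfng is chr12:19152869-19153168 on the minus strand.
Hes1: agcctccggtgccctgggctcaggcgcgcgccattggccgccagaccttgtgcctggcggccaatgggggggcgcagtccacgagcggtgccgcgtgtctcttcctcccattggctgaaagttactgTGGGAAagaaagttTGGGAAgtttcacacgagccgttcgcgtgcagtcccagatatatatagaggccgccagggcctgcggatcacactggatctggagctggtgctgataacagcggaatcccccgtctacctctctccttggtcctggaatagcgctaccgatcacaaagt
Hey2: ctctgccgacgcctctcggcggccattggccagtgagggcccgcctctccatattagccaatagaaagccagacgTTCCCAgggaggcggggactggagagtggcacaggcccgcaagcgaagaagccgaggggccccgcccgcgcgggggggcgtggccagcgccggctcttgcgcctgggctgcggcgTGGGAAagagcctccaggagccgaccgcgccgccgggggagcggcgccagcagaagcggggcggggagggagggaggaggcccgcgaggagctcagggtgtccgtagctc
Nrarp: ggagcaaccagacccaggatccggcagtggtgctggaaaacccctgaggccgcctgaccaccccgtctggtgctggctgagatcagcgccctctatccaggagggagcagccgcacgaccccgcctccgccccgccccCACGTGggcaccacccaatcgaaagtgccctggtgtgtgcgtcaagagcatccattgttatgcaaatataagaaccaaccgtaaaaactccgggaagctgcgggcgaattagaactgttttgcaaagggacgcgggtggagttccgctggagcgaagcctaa
Lfng: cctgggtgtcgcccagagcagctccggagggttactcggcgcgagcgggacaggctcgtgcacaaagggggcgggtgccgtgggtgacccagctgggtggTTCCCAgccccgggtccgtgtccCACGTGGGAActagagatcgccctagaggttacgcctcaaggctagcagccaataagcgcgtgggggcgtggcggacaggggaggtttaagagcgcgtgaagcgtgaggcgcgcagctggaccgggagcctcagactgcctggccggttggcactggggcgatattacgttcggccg
In Hes1, 2 matches to TGGGAA lay on the plus strand of the gene, at -123 to -118 and -109 to -104 from the start. Hey2 held 1 match on the opposite strand at -175 to -170 and 1 on the gene's strand at -60 to -55. Lfng held 1 on the opposite strand at -150 to -145 and 1 on its own strand at -123 to -118, where the E-box at -127 to -122 overlaps it. Nrarp held an E-box at -112 to -107 and no TGGGAA in this window. The longer form GTGGGAA was found in Hes1, Hey2 and Lfng. Promoters matched for 9 of the 10 genes, with 2 start sites for Rbpj. TGGGAA was in 5 of the 9 (also Notch3 and Rbpj), GTGGGAA in 3 and CACGTG in 2. Searched in the same way on both strands, TGGGAA was in 25.7% of the 33469 rat promoters of this length, GTGGGAA in 6.29% and CACGTG in 6.42%. A match says only that these letters stand in the window.

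After plating, 7 of the 10 genes rose on each of the 3 surfaces: Notch1, Notch3, Jag1, Hes1, Hey1, Hey2 and Nrarp. Notch2, Lfng and Rbpj fell on fibronectin and on laminin, and on uncoated dishes Lfng and Rbpj fell while Notch2 missed the threshold. For comparison, 9.67% of all tested genes were called on fibronectin, 19.0% on laminin and 12.6% on uncoated dishes (edgeR, adjusted p under 0.05). By direction, 6.61%, 12.1% and 8.48% of all tested genes were called higher and 3.06%, 6.96% and 4.10% lower. The median log2 difference of the 10 genes was 1.73 on fibronectin, 1.67 on laminin and 1.80 on uncoated dishes, and that of all tested genes was 0.00, -0.01 and 0.00. All 10 genes passed the filter on low counts, but Hey1 and Nrarp passed only through the plated groups, where they were high. Their direction was thereby fixed, yet the 7 rises and the medians of the 10 genes include them. Both lie at the upper end of the 10 genes and raise those medians. The 3 comparisons share the suspension libraries, so they are given side by side and not as independent support for each other.

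**Figure D1:**
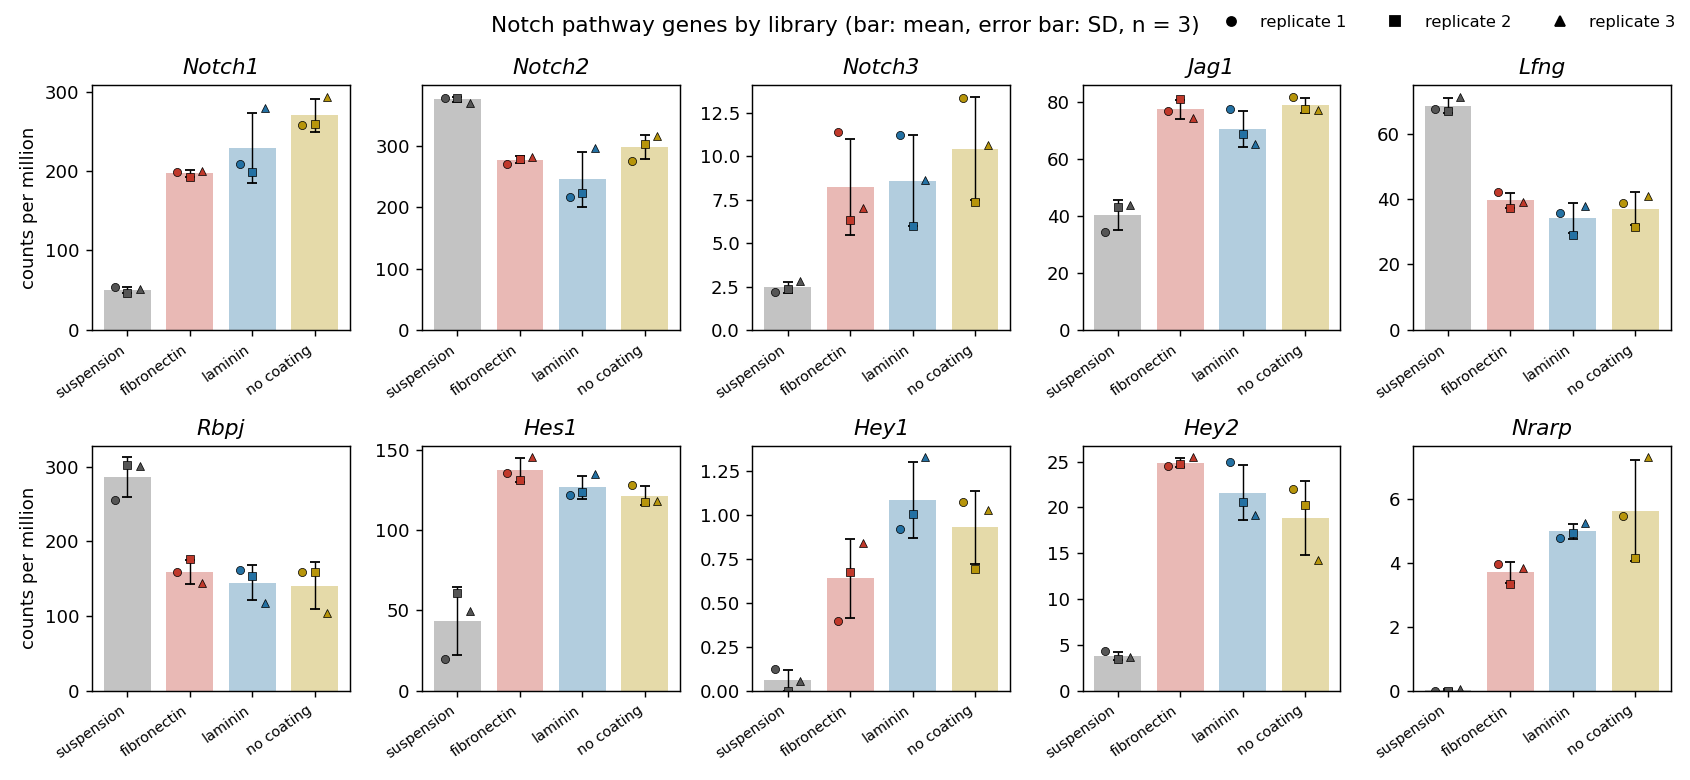
CPM of the 10 genes (y axis, own linear scale from 0 for each gene) in the 4 groups (x axis), with a point for each library, a bar at the mean and an error bar of 1 SD over 3 libraries. In each panel the 9 plated libraries lie on 1 side of the 3 suspension libraries, above them in 7 panels and below them for Notch2, Lfng and Rbpj.

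Among the receptors, Notch1 was measured at 54.0, 46.2 and 51.7 CPM in suspension, 199, 192 and 200 on fibronectin, 209, 199 and 279 on laminin and 258, 259 and 294 on uncoated dishes. Suspension was low throughout, and laminin replicate 3 stood above the other 2 laminin libraries. Notch1 rose by 2.00 ± 0.11 on the log2 scale on fibronectin (edgeR adjusted p = 4.17e-06), by 2.18 ± 0.11 on laminin (adjusted p = 1.55e-06) and by 2.43 ± 0.11 on uncoated dishes (adjusted p = 9.95e-07).

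Notch2, a second receptor of the same family, went the other way. It stood at 379, 379 and 371 CPM in suspension, 271, 279 and 282 on fibronectin, 217, 224 and 298 on laminin and 276, 303 and 316 on uncoated dishes. All 9 plated libraries lay below all 3 suspension libraries. The log2 difference was -0.40 ± 0.10 on fibronectin (edgeR adjusted p = 0.0265) and -0.61 ± 0.10 on laminin (adjusted p = 0.00235). On uncoated dishes it was -0.32 ± 0.10, with an edgeR adjusted p of 0.0559, and it was called in 4 of 14 alternatives. These were the batch as a block, RLE scaling, DESeq2 and leaving out batch 3. The block gave an edgeR adjusted p of 0.0181, in a fit that called 38.8% of all genes against 12.6% without it. In the remaining alternatives the Notch2 difference was not called, with edgeR adjusted p up to 0.147. The fibronectin call was lost when any 1 of its 6 libraries, controls included, was left out, with adjusted p between 0.0590 and 0.0945.

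Notch3, the receptor best known from the smooth muscle cells and pericytes of vessel walls, was low throughout. Its levels were 2.17, 2.38 and 2.80 CPM in suspension, 11.4, 6.32 and 7.0 on fibronectin, 11.2, 5.99 and 8.61 on laminin and 13.34, 7.37 and 10.6 on uncoated dishes. Plated replicate 1 was the highest of its group on each surface, and no plated library overlapped suspension. Notch3 rose by 1.78 ± 0.33 (edgeR adjusted p = 0.00746), 1.80 ± 0.33 (adjusted p = 0.00512) and 2.11 ± 0.33 (adjusted p = 0.00241) on the log2 scale on fibronectin, laminin and uncoated dishes.

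Because Notch1 and Notch2 moved in opposite directions, the ratio of their counts was taken within each library, a measure chosen after their values were seen. It was 0.142, 0.122 and 0.139 in suspension, 0.735, 0.687 and 0.709 on fibronectin, 0.963, 0.888 and 0.939 on laminin and 0.933, 0.853 and 0.929 on uncoated dishes. Gene length cancels between groups but not between the 2 receptors, so the ratio is not one of molecules. Mean ratios were 0.135 ± 0.0110 (SD, n = 3) in suspension, 0.710 ± 0.0241 on fibronectin, 0.930 ± 0.0387 on laminin and 0.905 ± 0.0451 on uncoated dishes. The ratio on fibronectin was below that on laminin and on uncoated dishes in 3 of 3 batches, without overlap of the groups. A two-sided exact permutation test gave p = 0.1, the smallest p that 3 libraries against 3 allow, for every pair of groups except laminin against uncoated dishes (p = 0.5), where laminin was the higher in 3 of 3 batches but the groups overlapped. The test does not use the batches.

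**Figure D2:**
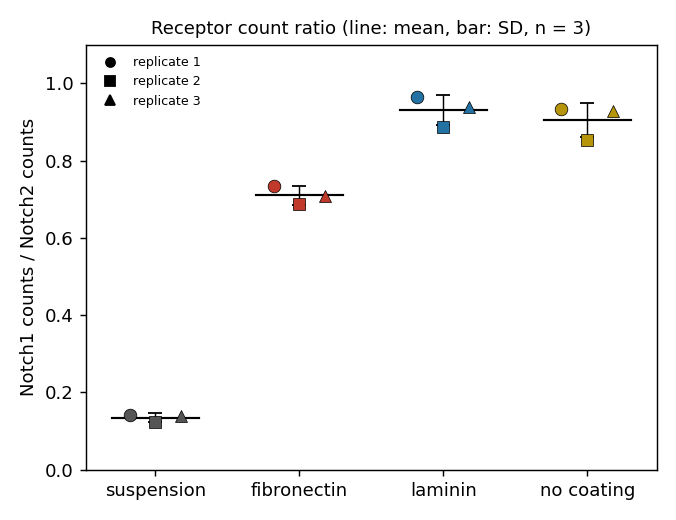
Ratio of Notch1 counts to Notch2 counts (y axis, linear from 0) in each library of the 4 groups (x axis), with a line at the mean and a bar of 1 SD over 3 libraries. Suspension lies between 0.122 and 0.142, fibronectin between 0.687 and 0.735, and the laminin and uncoated libraries between 0.853 and 0.963.

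Jag1 encodes Jagged1, a transmembrane ligand of the receptors. It was measured at 34.3, 43.0 and 43.7 CPM in suspension, 76.7, 80.9 and 74.4 on fibronectin, 77.4, 68.8 and 65.3 on laminin and 81.8, 77.4 and 76.9 on uncoated dishes. Every plated library was above every suspension library, and the plated groups overlapped. Jag1 rose by 0.97 ± 0.11 on the log2 scale on fibronectin (edgeR adjusted p = 0.000438), by 0.81 ± 0.11 on laminin (adjusted p = 0.00108) and by 0.98 ± 0.11 on uncoated dishes (adjusted p = 0.00033).

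Lfng encodes Lunatic fringe, a glycosyltransferase that extends sugars on Notch receptors and alters which ligands they answer to. Its levels were 67.4, 66.9 and 71.3 CPM in suspension, 42.2, 37.4 and 39.1 on fibronectin, 35.7, 29.1 and 37.7 on laminin and 38.9, 31.4 and 40.8 on uncoated dishes. Suspension was high, and replicate 2 was the lowest of each plated group. The log2 difference was -0.76 ± 0.12 (edgeR adjusted p = 0.00231) on fibronectin, -1.0 ± 0.12 (adjusted p = 0.000287) on laminin and -0.87 ± 0.12 (adjusted p = 0.000794) on uncoated dishes.

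Rbpj encodes the DNA-binding partner of the cleaved receptors, which acts as a repressor when no receptor domain is bound. It stood at 256, 302 and 301 CPM in suspension, 159, 176 and 144 on fibronectin, 162, 154 and 118 on laminin and 159, 159 and 105 on uncoated dishes. Replicate 3 was the lowest of each plated group, and no plated library reached the suspension range. The log2 difference was -0.81 ± 0.19 on fibronectin (edgeR adjusted p = 0.0222), -0.98 ± 0.19 on laminin (adjusted p = 0.00632) and -1.0 ± 0.19 on uncoated dishes (adjusted p = 0.00711). The fibronectin call was lost without suspension replicate 2 or 3 or fibronectin replicate 1 or 3, with adjusted p between 0.0683 and 0.0995.

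Of the targets, Hes1, a repressor of the Hes family and a direct target in many tissues, was measured at 19.9, 60.8 and 49.6 CPM in suspension. It was at 136, 131 and 145 CPM on fibronectin, 122, 124 and 135 on laminin and 128, 118 and 118 on uncoated dishes. Suspension replicate 1 was well below the other 2 suspension libraries, while the plated libraries kept to a narrow range. Hes1 rose by 1.69 ± 0.30 (edgeR adjusted p = 0.00583), 1.54 ± 0.30 (adjusted p = 0.00694) and 1.49 ± 0.30 (adjusted p = 0.00988) on the log2 scale on fibronectin, laminin and uncoated dishes. Without suspension replicate 1 the values were 1.34 ± 0.11, 1.19 ± 0.11 and 1.14 ± 0.11, and all 3 were still called. The call on uncoated dishes was lost only when those 2 groups were fitted alone (adjusted p = 0.0711).

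Hey2, a repressor of the related Hey family known from the developing ventricle and arteries, was scarce in suspension at 4.29, 3.49 and 3.64 CPM. Its levels were 24.5, 24.7 and 25.5 CPM on fibronectin, 24.9, 20.6 and 19.2 on laminin and 22.0, 20.28 and 14.3 on uncoated dishes. The fibronectin libraries lay close together, and uncoated replicate 3 was the lowest plated library. Hey2 rose by 2.74 ± 0.19 (edgeR adjusted p = 9.03e-06), 2.51 ± 0.18 (adjusted p = 1.12e-05) and 2.33 ± 0.18 (adjusted p = 2.09e-05) on the log2 scale on the 3 surfaces in that order.

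Nrarp encodes a small ankyrin repeat protein that is induced by Notch and restrains it. Its raw counts were 0, 0 and 1 in suspension, 70, 64 and 73 on fibronectin, 83, 103 and 91 on laminin and 102, 66 and 121 on uncoated dishes. Nearly nothing was counted in suspension, and plated means were 3.71 ± 0.329, 4.99 ± 0.247 and 5.64 ± 1.58 CPM (SD, n = 3) on fibronectin, laminin and uncoated dishes. The ratio of pooled counts per library total was 194 on fibronectin (exact 95% interval 34.5 to 7716.5), 261 on laminin (46.5 to 10362) and 297 on uncoated dishes (52.8 to 11755). These intervals cover counting error only, and their width comes from the 1 suspension count. It was 129, 182 and 207 without batch 1, and 134, 172 and 218 without batch 2. The suspension count was in replicate 3. Without batch 3 suspension was at 0, and against a floor of 3 counts over the group Nrarp was at least 42.0-fold higher on fibronectin, 56.1-fold on laminin and 56.1-fold on uncoated dishes. The test over libraries called all 3 rises (edgeR adjusted p = 8.01e-06, 3.51e-06 and 2.81e-06).

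Hey1, the close relative of Hey2, was rarer still. Its raw counts were 2, 0 and 1 in suspension, 7, 13 and 16 on fibronectin, 16, 21 and 23 on laminin and 20, 11 and 17 on uncoated dishes. No plated library was as low as a suspension library. The pooled ratio was 11.3 on fibronectin (exact 95% interval 3.56 to 57.2), 18.9 on laminin (6.16 to 94.1) and 16.4 on uncoated dishes (5.29 to 82.4). Without batch 1 it was 27.3, 41.4 and 31.0, and without batch 2 it was 7.19, 12.9 and 12.05, each against 1 to 3 suspension counts. The rises were called (edgeR adjusted p = 0.00509, 0.000648 and 0.00126), and the one on fibronectin missed the threshold without batch 3 (adjusted p = 0.0531). When fibronectin and suspension were fitted alone, Hey1 did not pass the filter and was not tested.

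Within batches, each plated library was also set against the suspension library of its own batch, which gives 9 differences per gene from 3 suspension libraries. All 9 were positive for each of the 7 genes that rose and none of 9 for Notch2, Lfng and Rbpj. The Notch1 differences ran from 1.97 to 2.49 on the log2 scale and those of Hey2 from 1.92 to 2.78. Hes1 spread more widely, from 0.96 to 2.86, with batch 1 highest on every surface. Jag1 ran from 0.55 to 1.32 and Notch3 from 1.27 to 2.63, also with batch 1 highest. Of the genes that fell, Notch2 ran from -0.77 to -0.26, Lfng from -1.22 to -0.58 and Rbpj from -1.55 to -0.59. For each surface, all 10 genes had plated and suspension libraries that did not overlap, as did 40.6%, 44.9% and 41.1% of all tested genes on fibronectin, laminin and uncoated dishes. Hey1 and Nrarp, which passed the filter only through the plated groups, are among the 10.

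**Figure D3:**
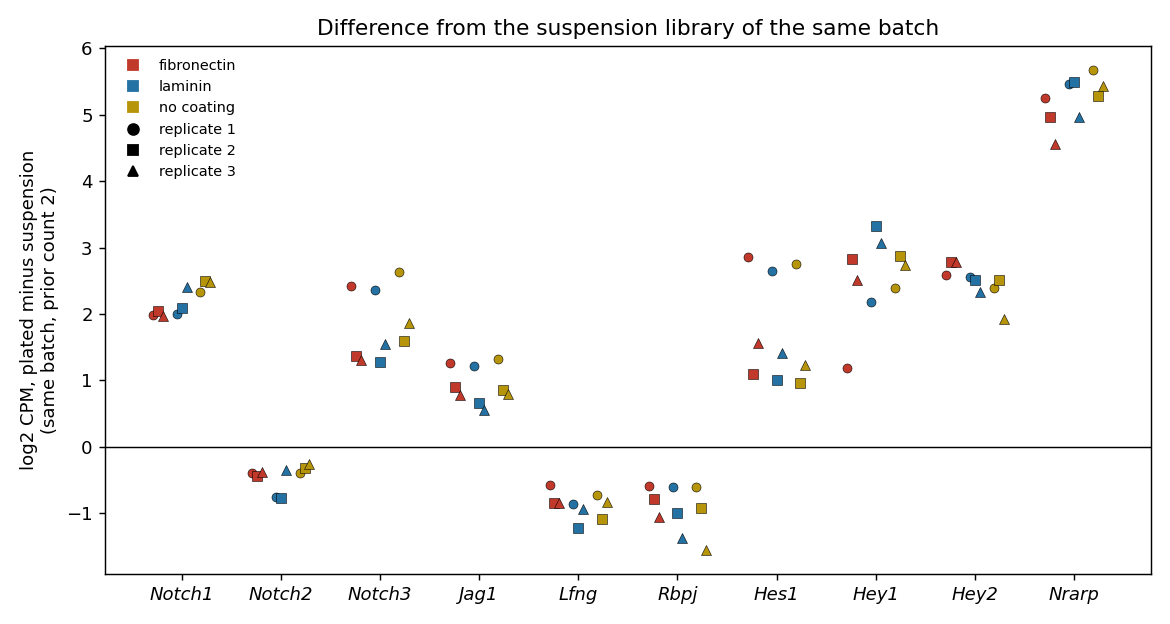
Difference in log2 CPM (y axis, prior count of 2) between each plated library and the suspension library of the same batch, for the 10 genes (x axis), with colour for the surface and shape for the replicate. Points lie above 0 for 7 genes and below 0 for Notch2, Lfng and Rbpj, and the heights for Hey1 and Nrarp depend on the prior count because their suspension counts are 0 to 2.

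The question of matrix dependence is whether the plated surfaces differ from each other. None of the 10 genes was called between surfaces in the fit over 12 libraries, where 0.150% of all tested genes were called between laminin and fibronectin, 0.180% between fibronectin and uncoated dishes and 0 between laminin and uncoated dishes. At an unadjusted p under 0.05 there were 0 of the 10 for laminin against fibronectin, 3 for fibronectin against uncoated dishes (Notch1, Nrarp and Hey2) and 2 for laminin against uncoated dishes (Notch1 and Notch2). At that level stood 2.99%, 3.43% and 1.56% of all tested genes in the same order. The median size of the log2 difference over the 10 genes was 0.19, 0.26 and 0.18 in these comparisons, and 0.07, 0.08 and 0.06 over all tested genes. These comparisons share libraries too.

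Notch1 gave the smallest adjusted p between surfaces. On fibronectin its log2 difference from uncoated dishes was -0.43 ± 0.11 (95% interval -0.67 to -0.20, edgeR adjusted p = 0.327), and by batch it was -0.35, -0.44 and -0.51. By CPM, Notch1 was lowest on fibronectin, intermediate on laminin and highest on uncoated dishes in all 3 batches. The step from fibronectin to laminin was 0.02, 0.04 and 0.44 by batch, so it rested on batch 3. With only the 9 plated libraries and the batch as a block, where 1.91% of all genes were called, Notch1 was the 1 gene of the 10 called between fibronectin and uncoated dishes (-0.43 ± 0.08, edgeR adjusted p = 0.0182). In that fit 2.26% of all genes were called between laminin and fibronectin and 0 between laminin and uncoated dishes, with none of the 10 among them.

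Leaving batch 3 out of that blocked fit, an alternative chosen after seeing the data and with 2 residual degrees of freedom, changed which of the 10 genes were called. Notch1 was then lower on fibronectin than on uncoated dishes (-0.39 ± 0.06, edgeR adjusted p = 1.03e-05), where 2.39% of all genes were called. Notch1 and Notch2 were lower on laminin than on uncoated dishes (-0.36 ± 0.06, adjusted p = 0.00013, and -0.42 ± 0.06, adjusted p = 1.67e-05), where 1.40% were called. Notch2 and Lfng were lower on laminin than on fibronectin (-0.35 ± 0.06, adjusted p = 5.08e-05, and -0.33 ± 0.08, adjusted p = 0.00545), where 4.94% were called. In batch 3 Notch2 on laminin, at 298 CPM, stood above fibronectin, at 282 CPM, which is the opposite order to batches 1 and 2.

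None of the targets was called between surfaces, and the signs of their differences varied. For Hey2, fibronectin exceeded uncoated dishes by 0.41 ± 0.16 on the log2 scale (95% interval 0.05 to 0.77, unadjusted p = 0.0292 in edgeR), with 0.18, 0.27 and 0.87 by batch. Nrarp had the other sign in each batch, at -0.43, -0.32 and -0.87, and its fitted difference was -0.58 ± 0.20 (95% interval -1.02 to -0.15, edgeR adjusted p = 0.865). Hey1 on laminin differed from fibronectin by 0.71 with an interval of -0.01 to 1.43, which rests on counts of 7 to 23. Groups did not overlap for Notch1, Hes1, Hey2 and Nrarp between fibronectin and uncoated dishes (5.97% of all genes), for Hey1 and Nrarp between laminin and fibronectin (6.05%), and for none of the 10 between laminin and uncoated dishes (3.58%). Jag1, at -0.01 between fibronectin and uncoated dishes, and Hes1, at 0.04 between laminin and uncoated dishes, had fitted differences near 0.

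**Figure D4:**
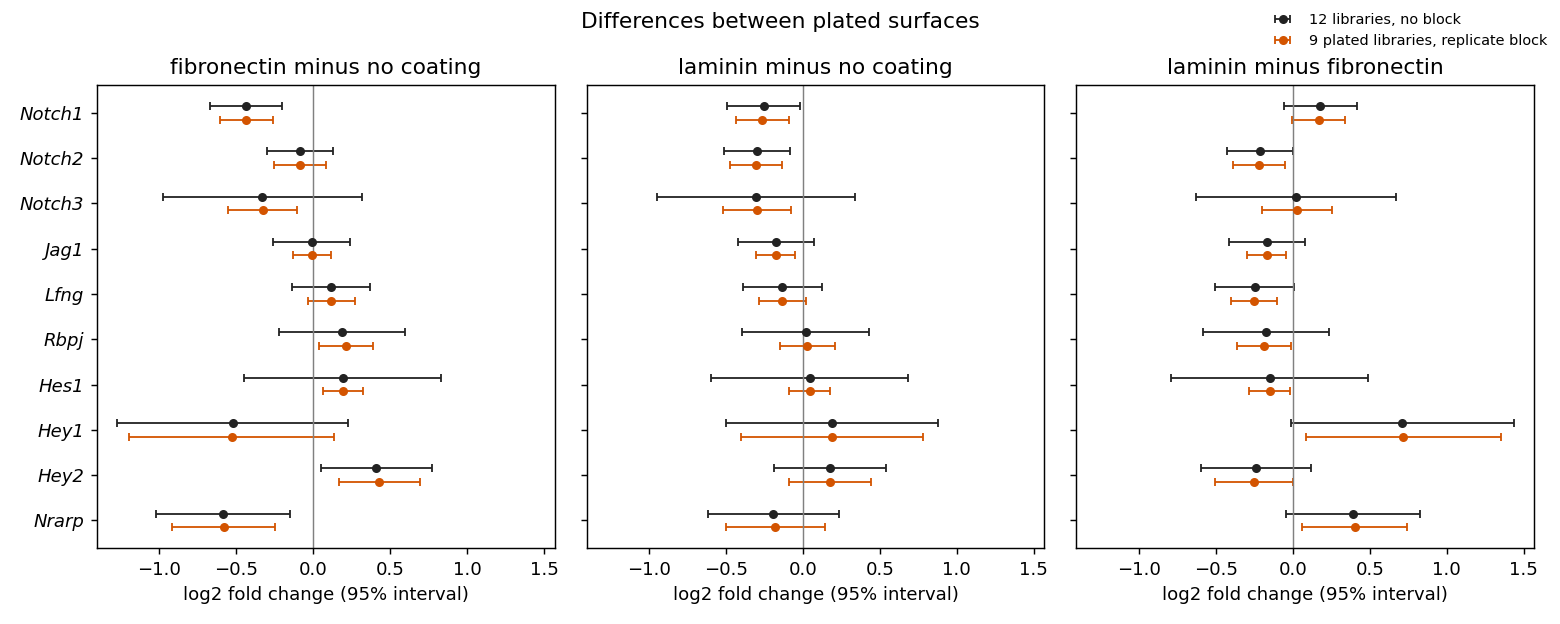
Log2 fold change between plated surfaces (x axis) with its 95% interval for the 10 genes (y axis), from the fit over 12 libraries without a block (black) and over the 9 plated libraries with the batch as a block (orange). The Notch1 interval between fibronectin and uncoated dishes, -0.67 to -0.20 in black, lies below 0, and the black intervals for Hey1, Notch3 and Hes1 are the wide ones.

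Other genes of the pathway were taken from a list ordered by role. Of its 70 genes, 57 were in the files and 48 passed the filter. On fibronectin 4 rose and 4 fell, on laminin 9 and 4, and on uncoated dishes 10 and 4 (edgeR, adjusted p under 0.05). Over all tested genes the median log2 difference was 0.00, -0.01 and 0.00 and 9.67%, 19.0% and 12.6% were called, while the median log2 difference of the list was 0.09, 0.01 and 0.03. With the batch as a block the list's counts were 14 and 9, 13 and 9, and 14 and 6, in a fit that called 28.7%, 43.2% and 38.8% of all genes. Without batch 3 they were 3 and 5, 5 and 8, and 4 and 5, beside 929, 1894 and 1203 calls among 10045 genes. None was called between surfaces in the fit over 12 libraries. With the 9 plated libraries and the batch as a block, 4 were called between laminin and fibronectin, 1 higher and 3 lower, and 4 between fibronectin and uncoated dishes, 2 in each direction. Among the former were Id1, Dtx4 and Efnb2 (0.51 ± 0.07, -0.45 ± 0.09 and -0.84 ± 0.12, with edgeR adjusted p = 0.00555, 0.0371 and 0.00671). Id1 and Efnb2 were also among the latter (-0.45 ± 0.07 and 0.69 ± 0.12, with edgeR adjusted p = 0.0091 and 0.0176). In the fit over 12 libraries Efnb2 just missed the threshold between laminin and fibronectin (edgeR adjusted p = 0.0522). That difference was called in 6 of 16 alternatives, including the replicate block, no filter, DESeq2 and leaving out ribosomal RNA genes. Between fibronectin and uncoated dishes Efnb2 was called in 3 of 16, DESeq2 included.

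Among the ligands, 2 of 8 listed genes were tested. Dll1, the Delta-like ligand 1 gene, rose by 1.06 ± 0.26 on laminin (edgeR adjusted p = 0.0192) and by 1.18 ± 0.26 on uncoated dishes (adjusted p = 0.0159), and its difference on fibronectin was 0.70 ± 0.27 (adjusted p = 0.121). It was low, at 1.57 to 2.60 CPM in suspension and 2.60 to 5.38 CPM after plating, and both calls were lost without batch 3 and without suspension replicate 2 or 3. They were also lost without laminin replicate 3 and uncoated replicate 3 respectively. Notch4, the fourth receptor, and the 2 tested genes for other fringes and receptor glycosylation were not called on any surface.

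For receptor cleavage, all 9 listed genes were tested. Among those that rose were Aph1b and Psenen, which encode parts of the gamma-secretase complex. The log2 differences on fibronectin, laminin and uncoated dishes were 0.39, 0.46 and 0.42 for Aph1b, called on all 3, and 0.44, 0.50 and 0.47 for Psenen, called on laminin and uncoated dishes. Without batch 3 each of these calls was lost.

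For ubiquitination and endocytosis of ligands and receptors, 2, 3 and 3 of 14 tested genes rose on fibronectin, laminin and uncoated dishes. Over all tested genes 6.61%, 12.1% and 8.48% were called higher. Neurl3, which encodes a Neuralized-type ubiquitin ligase, was at 4.26 to 4.47 CPM in suspension and 17.5 to 27.5 CPM after plating. Neurl3 rose by 2.18, 2.48 and 2.41 on the log2 scale, each ± 0.16, and was called in every alternative. Dtx4, a Deltex ubiquitin ligase gene, rose by 0.95 ± 0.15 on fibronectin, 0.50 ± 0.16 on laminin and 0.61 ± 0.16 on uncoated dishes, of which the fibronectin call held in every alternative. Dtx2 was called on laminin and on uncoated dishes, and these calls were lost in 2 and 11 of 14 alternatives. Among 11 tested nuclear co-activators and co-repressors, Maml1, a Mastermind-like co-activator gene, was called higher on uncoated dishes (0.31 on the log2 scale, edgeR adjusted p = 0.0482), a call lost in most alternatives.

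The Hes and Hey relatives and further targets gave 9 tested genes, of which 1, 2 and 2 rose and 4 fell on each surface. Of all tested genes, 6.61%, 12.1% and 8.48% were called higher and 3.06%, 6.96% and 4.10% lower on fibronectin, laminin and uncoated dishes. Hes2 had 1 count in each suspension library and pooled counts of 89, 98 and 110 after plating, a ratio of 27.9 (exact 95% interval 9.23 to 138), 30.8 (10.2 to 152) and 37.6 (12.5 to 185) on fibronectin, laminin and uncoated dishes. Like Hey1 and Nrarp, it passed the filter only through the plated groups, where it was high. Nfkb2, an NF-kB subunit gene, was called higher on laminin and on uncoated dishes (0.36 and 0.37 on the log2 scale), and these calls were lost in 7 and 9 of 14 alternatives, among them without batch 3. Those that fell were Id1, an inhibitor of basic helix-loop-helix factors and a target of BMP signalling, Efnb2, the ephrin-B2 ligand of arterial cells, Gata2, a transcription factor of blood and vessel lineages, and Ccnd1, the cyclin D1 gene. Id1 differed by -2.36, -1.83 and -1.90, each ± 0.20. Efnb2 differed by -1.13, -1.97 and -1.82, each ± 0.14. Gata2 differed by -0.91, -0.72 and -0.67, each ± 0.13. Ccnd1 differed by -0.50, -0.63 and -0.58, each ± 0.11. The fibronectin call of Ccnd1 (edgeR adjusted p = 0.0210) was lost in 4 of 14 alternatives, each with 1 library left out (adjusted p up to 0.0891). These listed targets held both directions. Several are known to answer to other pathways as well, and which pathway moved them was not tested.

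**Figure D5:**
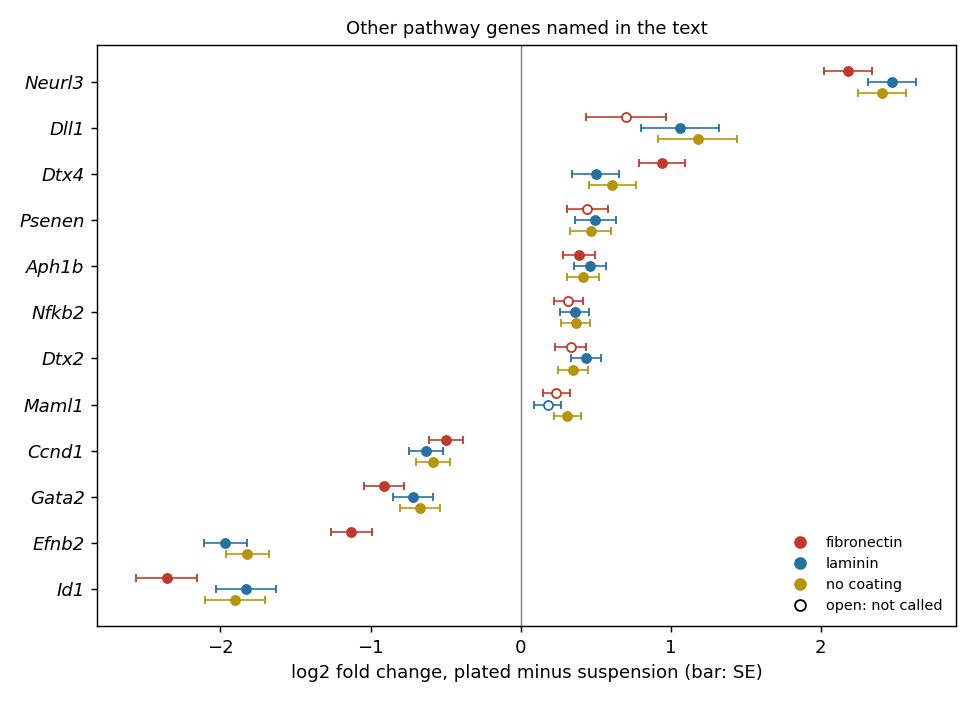
Log2 fold change between plated and suspension cells (x axis, bar of 1 SE) for other listed pathway genes named in the text (y axis), with colour for the surface and open points where the change was not called. Neurl3 lies highest and Id1 and Efnb2 lie lowest on each surface, and Hes2 is left out because its suspension counts were 1 per library.

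Markers of other cells that use these genes were read beside them. The labelled cell type was a cardiac progenitor: Gata4 was at 88.4 CPM and Kit at 3.09 CPM over the 12 libraries, while Abcg2 and Isl1 had 0 counts and Tbx5 had 1. The 11 endothelial markers in the files, of 12 listed, summed to 139 to 220 CPM in suspension, 144 to 185 on fibronectin, 146 to 194 on laminin and 146 to 189 on uncoated dishes. Flt1, at a mean of 135 CPM over the 12 libraries, and Egfl7, at 40.3 CPM, made up most of this sum. Mean Flt1 was 154 CPM in suspension and 126, 129 and 130 on fibronectin, laminin and uncoated dishes. Mean Egfl7 was 36.6 CPM in suspension and 40.4, 43.4 and 40.8 on these surfaces, and neither gene was called. Of 4 tested, only Vwf rose (1.83, 1.46 and 1.21 on the log2 scale), from a low level, and Cldn5 had 0 counts, Cdh5 10 and Pecam1 59 over all libraries. The 8 mural markers in the files, of 9 listed, summed to 235 to 316 CPM in suspension, 293 to 351 on fibronectin, 309 to 345 on laminin and 304 to 334 on uncoated dishes. Tagln, at a mean of 196 CPM over the 12 libraries, made up most of the mural sum. Of 6 tested, Pdgfrb rose on all 3 surfaces (0.96, 0.79 and 0.85) and Myh11 fell on laminin, while Rgs5 had 2 counts over all libraries and Cnn1 30. Tnnt2, a cardiomyocyte marker, also rose, with Nkx2-5 and Myh7 at 0 counts. Tnni3, of the same list, was at 0.521 CPM in suspension and 0.450, 0.377 and 0.431 on fibronectin, laminin and uncoated dishes. Of the rest of that list, Actc1 had 13 counts over all libraries, Actn2 8, Ryr2 5 and Myh6 1. The 8 fibroblast and mesenchymal markers summed to far more, 6670 to 7642 CPM in suspension and 7332 to 7981 CPM after plating. Vim, at a mean of 5125 CPM over the 12 libraries, and Col1a1, at 1164.5 CPM, were the highest. Vim rose on fibronectin and laminin (0.25 and 0.26), while Thy1 had 18 counts over all libraries and Tcf21 had 0. Without a call, mean Ddr2 was 134 CPM in suspension and 110, 106 and 106 on fibronectin, laminin and uncoated dishes. Mean Pdgfra, also not called, was 256 CPM in suspension and 330, 379 and 355 on these surfaces. Of the blood list, which summed to 2.63 to 3.22 CPM in suspension and 3.74 to 5.86 CPM after plating, Laptm5 rose on all 3 surfaces (0.89, 0.74 and 0.91), with Ptprc at 3 counts. The part of these markers in the Notch pathway differences was not tested.

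The genes most like Notch1 and Hey2 were ranked by the root mean square difference over the 9 within-batch log2 differences, among 8676 genes, as a description of libraries that share 3 suspension controls. For Notch1 they were Nod1 (0.215), Neurl3 (0.240), Mrgprf (0.324), Adgre5 (0.341) and Eepd1 (0.363). For Hey2 they were Eepd1 (0.358), Nfatc2 (0.414), Neurl3 (0.423), Mrgprf (0.441) and Olfml2a (0.459). Neurl3, Mrgprf and Eepd1 were in both sets. None of the 10 Notch pathway genes was in either, but Hey1 and Nrarp were too low to be ranked.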

How the data were processed

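RNA was measured in 12 libraries, 4 groups of 3. The values are raw read counts per gene, deposited by the authors as 1 file per library and keyed by Entrez identifier, per the file headers. Reads were mapped to rn4, per the submitters' processing notes. Not given in the sources used here are the aligner, counting tool, annotation and strand setting. Reads shared with an antisense gene or a near-identical copy could therefore not be told apart. Symbols came from the RefSeq table of GRCr8, used for names, and promoters from RefSeq on the same assembly. Symbols were matched for 16761 of 16924 identifiers.

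Counts were tested with edgeR 4.0.16 in R 4.3.3 (filterByExpr, TMM factors 0.962 to 1.03, glmQLFit and glmQLFTest) in a means model of 4 groups with 8 residual degrees of freedom. Benjamini-Hochberg adjustment ran over 10020 genes. CPM uses library totals. Intervals on pooled count ratios are exact at 95%, and an empty group is set at a floor of 3 counts. Both cover counting error only. The fit was tested on simulated data drawn without a batch effect and without changed genes as rare as Hey1 and Nrarp. The simulation therefore does not cover those features of the data.

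Libraries with the same number share a batch in the labels, which pairs them. The median correlation of their deviations from group means was 0.409 over 18 same-batch pairs (lowest 0.036) and -0.124 over 36 others. The alternatives were a replicate block, RLE scaling, library size only, no filter, DESeq2 1.42.0, leaving out batch 3, ribosomal RNA genes or each library, and fits of fewer groups.

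All 10 genes are described. Other pathway genes are named where called in at least 1 comparison, except some that are counted but not reported here by name, markers where called or at the levels that bear on the cell type, and likeness covers genes with mean log2 CPM of at least 2, skipping provisional symbols. The genes and lists were chosen with earlier results of these data known.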

Additional observations from a re-analysis of the deposited data

How the results depend on the processing

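Against suspension, the 10 genes kept their direction in every alternative in which they were tested. Hey1 was not tested when fibronectin and suspension were fitted alone. On laminin 10 were called in each. On fibronectin it was 8 to 9 with 1 library left out and 9 to 10 otherwise, and on uncoated dishes 9 and 8 to 10. The replicate block changed 1 of these calls, that of Notch2 on uncoated dishes. Between surfaces 0 were called with 1 library left out. With the plated libraries and the replicate block 1 was called between fibronectin and uncoated dishes, and with batch 3 also left out 1, with 2 between laminin and fibronectin and 2 between laminin and uncoated dishes. The cause was not tested.

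Over all genes, 969 were called on fibronectin, 1905 on laminin, 1261 on uncoated dishes, 15 between laminin and fibronectin, 18 between fibronectin and uncoated dishes and 0 between laminin and uncoated dishes. With the replicate block these were 2872, 4333, 3889, 41, 47 and 0. With 1 library left out they ran 412 to 720, 797 to 1439, 537 to 1285, 7 to 15, 10 to 14 and 0. DESeq2 called 43 and 51 in the comparisons of fibronectin with laminin and with uncoated dishes, the plated fit with the block 225 and 191, and that fit without batch 3 494 and 239, with 140 for laminin against uncoated dishes. Fits of only the compared groups gave 461 for uncoated dishes against suspension, 9 for laminin against fibronectin and 11 for fibronectin against uncoated dishes, and leaving out batch 3 gave 11 for the last. Rises and falls numbered 662 and 307, 1208 and 697, and 850 and 411 on fibronectin, laminin and uncoated dishes. By library size only they were 384 and 329, 802 and 661, and 496 and 417, and without batch 3 432 and 497, 859 and 1035, and 519 and 684. Calls in the list of other pathway genes ran 6 to 9, 7 to 13 and 6 to 10 with 1 library left out.

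Signs reversed only for small differences between surfaces. Notch3, laminin minus fibronectin, was 0.02, -0.078 without batch 3, -0.076 in the plated block fit without batch 3 and -0.23 to 0.35 with 1 library left out. Jag1, fibronectin minus uncoated, was -0.01, 0.000543 with RLE scaling, 0.00147 without the filter, 0.000199 in DESeq2 and -0.046 to 0.034 with 1 library left out. Rbpj, fibronectin minus uncoated, ran from -7.48e-05 to 0.30 with 1 library left out. For laminin minus uncoated, Rbpj was -0.029 and Hes1 -0.024 without batch 3, the plated block fit without batch 3 gave -0.032 and -0.024, and with 1 library left out Rbpj ran from -0.17 to 0.16, Hey2 from -0.0057 to 0.32 and Nrarp from -0.36 to 0.0081. Deviations of the suspension library correlated with those of the plated libraries of its batch by 0.153 to 0.304 in batch 1, 0.246 to 0.287 in batch 2 and 0.036 to 0.0676 in batch 3, which limits the block. Depth limits Hey1 and Nrarp, with 3 and 1 counts in suspension.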
